A study of Drosophila melanogaster with 6 samples.

Results

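The alpha-esterase genes of Drosophila melanogaster are a family of carboxylesterase genes that lie clustered on chromosome arm 3R, with other genes between some of them. Of the 9 listed members, alpha-Est1, alpha-Est2, alpha-Est3, alpha-Est5, alpha-Est6, alpha-Est7, alpha-Est8, alpha-Est9 and alpha-Est10, 8 were measured by a probe set with no other gene in its annotation, out of 11983 genes so measured on the array. alpha-Est1 was not listed with a probe set in the platform annotation and was not analysed here. Each of the 8 had 1 probe set, a group of short oligonucleotides whose brightness is summarised as 1 signal. The members were picked by name with earlier results of the same comparison in view, so their differences are given as a description and are no independent evidence of a response.

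Flies of the da-GAL4xUAS-AMP cross, labelled as overexpressing an antimicrobial peptide, were set against flies of the UAS-AMP stock, which carried the same transgene without the driver and served as control. The GAL4xUAS group and the UAS group had 3 samples each of adult whole flies, and every sample pooled 25 males and 25 females. da-GAL4 takes the promoter of daughterless, a gene that is active in most tissues, so the driver is meant to act widely. Where the transgene was expressed was not examined here. The labels name neither the peptide nor the age of the flies. The cross also brought in the driver and the genetic background of its stock, both absent from the UAS stock, and their part in any difference cannot be told apart from that of the peptide.

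Carboxylesterases split ester bonds with a serine in the active site, and they share the alpha/beta-hydrolase fold with acetylcholinesterase. Insects use them to break down dietary and lipid esters and to bind or degrade ester insecticides such as organophosphates. In the alpha cluster the best known member is alpha-Est7, also called aliesterase, whose counterparts in the sheep blowfly and the house fly carry mutations that give organophosphate resistance. alpha-Est5 is also known as esterase C, an enzyme first seen as a band on gels.

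The 6 arrays were alike in scale. Their median signals were 767 to 903 in the GAL4xUAS arrays and 847 to 865 in the UAS arrays, and the correlations between arrays over all probe sets were 0.945 to 0.958. Signals are linear and set by each probe set's own chemistry, so levels are compared between groups for 1 gene and not between genes. All 8 alpha-esterase genes had signals on all 6 arrays above the 95th percentile of 27 bacterial control probe sets, taken as a guide to background. That percentile lay at 94.1 to 123 in the GAL4xUAS arrays and 90.3 to 118 in the UAS arrays. The number of arrays, 3 a group, limited the precision, and since nothing says that replicates were raised apart, the spread between them may be technical.

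The comparison asks how transcripts of the cluster differed between the cross and the undriven stock. Of the 8 genes, alpha-Est2 stood far lower in the cross, alpha-Est5 lay somewhat higher, and the other 6 had groups whose arrays overlapped. In all, 5 of the 8 were lower and 3 were higher, against 50.2% of all 11983 genes lower. The split was 6 lower and 2 higher with quantile scaling and 4 of each with median centring, as the signs of alpha-Est3 and alpha-Est7, both near 0, turned. The median log2 difference of the 8, GAL4xUAS minus UAS, was -0.10, against -0.0019 over all genes, and the median of its size regardless of sign was 0.32 against 0.22. A log2 difference over 1 in size was found in 1 of the 8 and in 5.7% of all genes. In whole flies, fewer cells of a type and less RNA per cell cannot be told apart.

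The differences were fitted with limma on log2(signal + 1) over all 18769 probe sets. With a constant prior variance, the call rule used here, 0% of probe sets passed a Benjamini-Hochberg adjusted p of 0.05, and none of the 8 genes did. At an unadjusted p under 0.05, 11% of probe sets were called by limma, 2.87% of all being higher and 8.16% lower. Counted over genes, 3.00% were higher and 7.51% lower. Of the 8 genes alpha-Est5 was among the higher and alpha-Est2 among the lower. With a prior variance that follows the signal (the trended prior), 0.783% of probe sets passed, 0.309% higher and 0.474% lower, and alpha-Est2 was the 1 member among them. The 3 GAL4xUAS arrays all lay below the 3 UAS arrays in 12.8% of probe sets (13.1% of genes) and all above them in 5.76% (6.72% of genes). Among the 8 genes each happened once, in alpha-Est2 and alpha-Est5. Since the members were chosen with this contrast known, nothing is read from these counts.

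**Figure D1:**
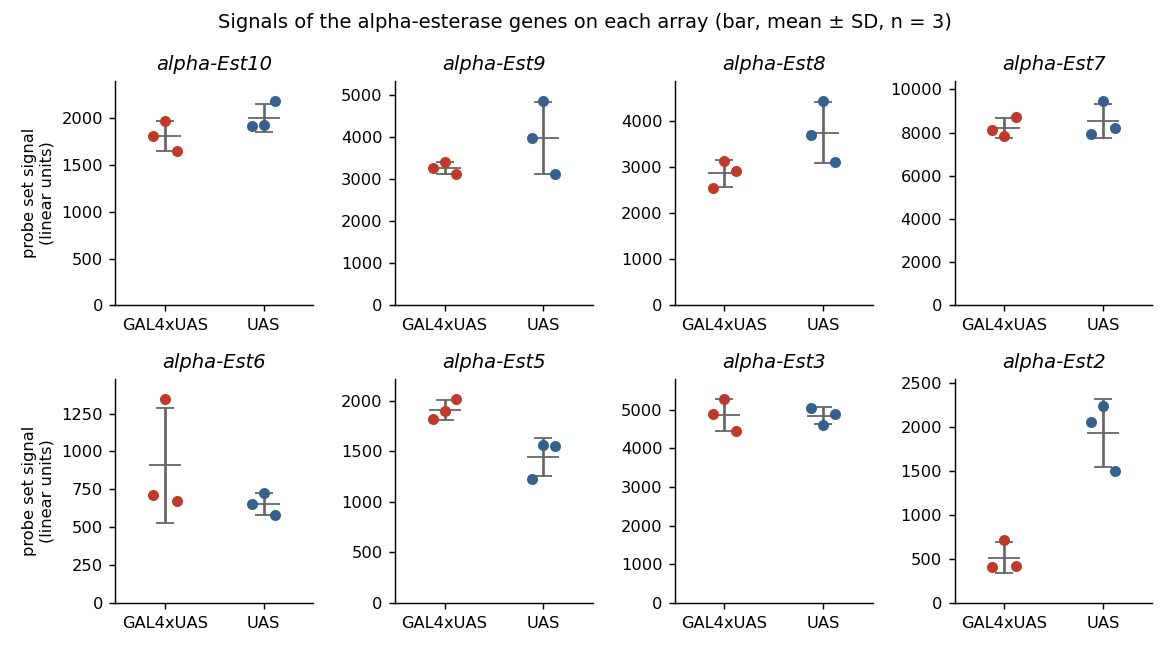
Probe set signal in linear units (vertical axis, from 0) of each of the 8 alpha-esterase genes, in order along the chromosome, on the 3 GAL4xUAS arrays (red, left) and the 3 UAS arrays (blue, right), with the mean and SD as bars. alpha-Est2 sits between 405.5 and 717.1 in the cross, below all UAS arrays, and alpha-Est5 sits between 1816 and 2015, above all UAS arrays.

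alpha-Est2 had signals of 405.5, 717.1 and 414.9 in the GAL4xUAS arrays, against 2054, 2238 and 1494 in the UAS arrays. The groups did not overlap, and the lowest UAS array was still 2.08-fold above the highest GAL4xUAS array. The means were 513 ± 177 in the cross and 1929 ± 387 in the UAS stock (SD, n = 3 each). This gives a log2 difference of -1.94 ± 0.30 (SE, 95% interval -2.68 to -1.20), or a signal 3.84-fold lower in the cross. In size it was number 103 among the 11983 genes, and of the 7593 genes at least as bright, 10 had a larger difference.

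The spread of alpha-Est2 within the groups was itself wide. The residual SD was 0.39 on the log2 scale, and 24.8% of the 500 probe sets nearest to it in mean signal had a larger one. Within the cross the second replicate lay apart from the other two by most of a log2 range of 0.82, and within the UAS stock the range was 0.58. Both ranges were smaller than the gap of 1.06 between the groups. The adjusted p of alpha-Est2 in limma was 0.136 with the constant prior and 0.0181 with the trended prior. In the trended fit it came to 0.125 without GAL4xUAS replicate 1, 0.144 without UAS replicate 1 and 0.106 without UAS replicate 2, and it stayed under the threshold when any one of the other 3 arrays was left out. The log2 difference itself lay between -2.21 and -1.80 with 1 array left out.

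alpha-Est5, or esterase C, went the other way. Its signals were 1816, 1892 and 2015 in the GAL4xUAS arrays, against 1230, 1560 and 1548 in the UAS arrays. Every array of the cross lay above every UAS array, by 1.16-fold at the nearest point. The means were 1908 ± 100.2 in the cross and 1446 ± 187 in the UAS stock (SD, n = 3 each), a log2 difference of 0.41 ± 0.15 (SE, 95% interval 0.028 to 0.79), or 1.33-fold. The range within the UAS stock, 0.34 on the log2 scale, was nearly as large as the difference between groups, and the adjusted p in limma was 0.421.

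alpha-Est6, a neighbour of alpha-Est7, had nearly the same mean log2 difference as alpha-Est5, but with another make-up. The GAL4xUAS arrays gave 710.1, 1345 and 670.3, and the UAS arrays gave 653.6, 726.3 and 579.5. The difference of 0.41 ± 0.31 (SE, 95% interval -0.36 to 1.17) came mainly from GAL4xUAS replicate 2, and it was 0.085 without that array. The other two GAL4xUAS arrays lay inside the range of the UAS arrays. Replicate 2 of the cross was also the array with the largest summed signal of the 13 male reproductive tract markers, 405366 against 248090 and 256507 in the other GAL4xUAS arrays and 195339 to 265588 in the UAS arrays. The part of these cells in the signal of alpha-Est6 was not tested.

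alpha-Est8 and alpha-Est9, adjacent members near the other end of the cluster, were lower in the cross on average with groups that overlapped. alpha-Est8 had signals of 2549, 3128 and 2922 in the GAL4xUAS arrays, against 3701, 4424 and 3109 in the UAS arrays. The cross averaged 2866 ± 293 and the UAS stock 3745 ± 658 (SD, n = 3 each). Its log2 difference was -0.38 ± 0.18 (SE, 95% interval -0.83 to 0.082), smaller than the range of 0.51 within the UAS stock.

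alpha-Est9 had signals of 3262, 3400 and 3123 in the GAL4xUAS arrays, against 3967, 4849 and 3125 in the UAS arrays. The third UAS array lay within the range of the cross, and the other two above it. The log2 difference was -0.27 ± 0.19 (SE, 95% interval -0.75 to 0.22), and the log2 ranges were 0.12 within the cross and 0.63 within the UAS stock. Without UAS replicate 2 the difference was -0.11, and without UAS replicate 3 it was -0.43. Among the UAS arrays, alpha-Est2, alpha-Est8 and alpha-Est9 shared 1 order, with replicate 2 highest and replicate 3 lowest. The summed signal of the 6 measured fat body markers had that order too, at 103381, 108085 and 86052 in UAS replicates 1, 2 and 3. In the GAL4xUAS arrays the fat body sums were 80867, 94035 and 99890, with replicate 3 highest, whereas the 3 esterase genes were each highest in replicate 2. The largest part of each sum was apolpp, which was highest in replicate 3 of the cross, as were Col4a1 and fon. Fbp1, Fbp2 and Lsp2 were instead highest in replicate 2 of the cross, at 740.4, 619.6 and 2449. Over the UAS arrays every fat body marker but apolpp had the order of the 3 esterase genes. Irk3, the 1 measured Malpighian tubule marker, had the same order over the UAS arrays and was also highest in replicate 2 of the cross, at 2778, 3275 and 2713 in GAL4xUAS replicates 1, 2 and 3 and 4130, 4963 and 3661 in the UAS replicates. Fbp1 lay in the background range on GAL4xUAS replicate 1 and UAS replicate 3. The sums of the egg and yolk, male reproductive tract, midgut and muscle markers did not have the esterase order over the UAS arrays. Nor did trp, the 1 measured eye marker, but the muscle markers fln and TpnC4 had it. With 3 arrays few orders are possible, and the share of all genes with this order was not counted. The part of fat body or Malpighian tubule cells in these values was not tested.

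**Figure D2:**
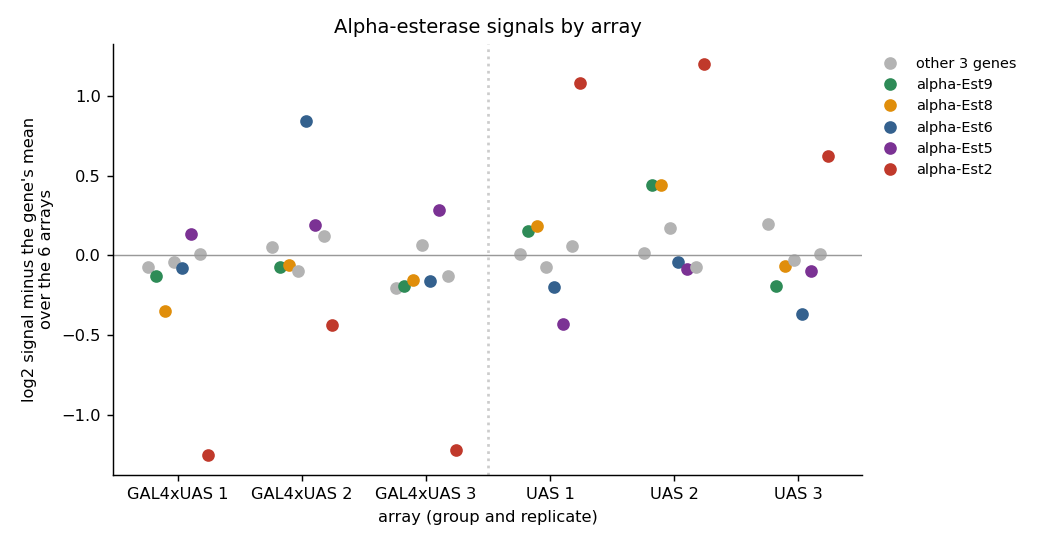
Log2 signal of each alpha-esterase gene minus that gene's mean over the 6 arrays (vertical axis) on each array (horizontal axis, GAL4xUAS left of the dotted line, UAS right), with genes offset sideways for legibility and the other 3 genes, alpha-Est3, alpha-Est7 and alpha-Est10, in grey. alpha-Est2 is low on all 3 GAL4xUAS arrays, alpha-Est6 is high on 1 of them, and alpha-Est8 and alpha-Est9 take the same order over the UAS arrays.

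The remaining members differed little. alpha-Est7, the aliesterase, had signals of 8116, 7820 and 8741 in the GAL4xUAS arrays, against 7955, 9442 and 8192 in the UAS arrays. Its log2 difference was -0.05 ± 0.13 (SE), with a 95% interval of -0.39 to 0.29, and the groups overlapped. alpha-Est3, the gene next to alpha-Est2, had signals of 4878, 5267 and 4441 in the GAL4xUAS arrays, against 5045, 4615 and 4878 in the UAS arrays. The difference was 0.0021 ± 0.13 (SE, 95% interval -0.32 to 0.33), and its sign is not settled.

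alpha-Est10, the first gene of the row, had signals of 1811, 1975 and 1648 in the GAL4xUAS arrays, against 1916, 1925 and 2183 in the UAS arrays. The groups overlapped through GAL4xUAS replicate 2, and the difference was -0.15 ± 0.14 (SE, 95% interval -0.50 to 0.20). For these 3 genes the within-group ranges, 0.13 to 0.26 on the log2 scale, were larger than that gene's difference in size.

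In the gene order of the Release 6 assembly, the row from alpha-Est10 to alpha-Est1 held 18 genes, of which 9 are no listed members. alpha-Est4 and the pseudogene alpha-Est4aPsi were among these 9 and had no probe set here. Of the 9, 3 were measured, and with the 5 genes on each side of the row 6 non-member genes were measured in all, 2 higher and 4 lower, with log2 differences of -1.05 to 0.49. The genes nearest to alpha-Est2 with a value, alpha-Est3 on one side and the neuroligin gene Nlg3 on the other, had differences of 0.0021 and -0.04. In both, the groups overlapped. Nlg1, the next measured gene beyond Nlg3, was lower in the cross without overlap, by a log2 difference of -0.62, and was named after its values were seen. Nlg1 and Nlg3 are also counted in the wider family list below.

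alphaTub84D, an alpha-tubulin gene inside the row next to alpha-Est5, was the 1 neighbour with an unadjusted p under 0.01 in limma. Its signals were 190.8, 144.4 and 171.5 in the GAL4xUAS arrays, against 392.9, 383.3 and 282.0 in the UAS arrays. The groups did not overlap and the signal was 2.07-fold lower in the cross, with an adjusted p of 0.192. Its probe set carries the suffix for probes that more than 1 transcript can share, so the signal may not be that of alphaTub84D alone. alphaTub84D and alpha-Est2 were lower while alpha-Est5 and alpha-Est3 lay between them along the chromosome, 1 higher in the cross and the other level with the UAS stock.

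**Figure D3:**
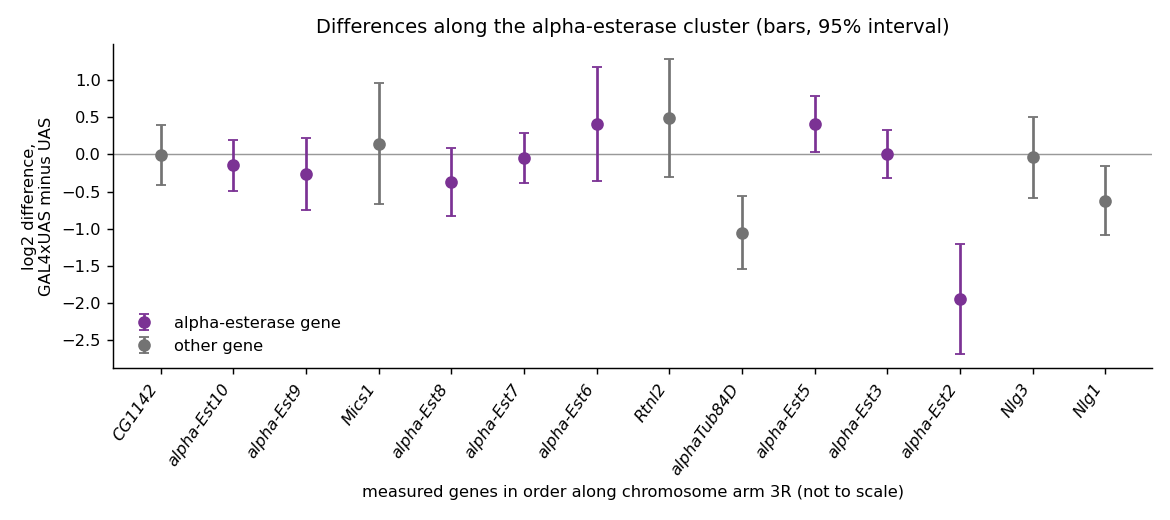
Log2 difference, GAL4xUAS minus UAS (vertical axis), with its 95% interval, for the 14 measured genes in order along chromosome arm 3R (horizontal axis, not to scale), alpha-esterase genes in purple and other genes in grey. alpha-Est2 at -1.94 and alphaTub84D at -1.05 stand apart from their neighbours.

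Other members of the carboxylesterase family, set out by name from general knowledge of the family, give a wider frame. Of 22 such genes, all but Est-6 were measured, and these 21 were 8 higher and 13 lower in the cross, with a median log2 difference of -0.30 against -0.0019 over all genes. Under quantile scaling 12 were lower and the median was -0.093, under median centring 11 were lower and it was -0.25, and with 1 array left out it ranged from -0.45 without UAS replicate 3 to -0.14 without UAS replicate 2. The groups did not overlap in 6 of the 21, or 28.6%, all lower in the cross, against 13.1% of all genes. None of the 21 was higher without overlap, against 6.72% of all genes. None passed with the constant prior in limma, where 6 had an unadjusted p under 0.05, all lower, against 7.51% of all genes. With the trended prior 1 passed, Ace. This list too was drawn up with earlier results of these data known, so nothing is read from these counts.

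Ace, which encodes acetylcholinesterase, the enzyme that ends transmission at cholinergic synapses, had signals of 2416, 2046 and 2104 in the GAL4xUAS arrays, against 4186, 4357 and 3235 in the UAS arrays. Its log2 difference was -0.83, with an adjusted p of 0.0475 in limma with the trended prior. With 1 array left out that p was 0.102 to 0.301, except for 0.0207 without UAS replicate 3. Gli, which encodes gliotactin, a family member without enzyme activity that is needed at septate junctions, had signals of 1061, 1145 and 1175 in the cross, against 2032, 2199 and 1774 in the UAS stock, a log2 difference of -0.82. Nlg4, a neuroligin of synaptic adhesion, lay within the background range on all 3 arrays of the cross and above it on the 3 UAS arrays, which makes it at least 1.44-fold lower in the cross (adjusted p = 0.249 in limma with the constant prior). The other 3 without overlap were Est-Q, Jhedup and Nlg1, named after their values were seen, with log2 differences of -0.93, -0.58 and -0.62. Est-P and CG4382 lay in the background range on all 6 arrays.

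The summed signal of the 21 genes was 21773, 24368 and 24229 in the GAL4xUAS arrays, against 31594, 36887 and 25459 in the UAS arrays. These sums did not overlap between the groups, and UAS replicate 3 was the closest to the cross, as it was for alpha-Est2, alpha-Est8 and alpha-Est9. Bright probe sets weigh most in such a sum. The largest part was Glt, at 6831, 7073 and 8793 in the GAL4xUAS arrays and 10422, 13156 and 7581 in the UAS arrays, where the groups overlapped.

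**Figure D4:**
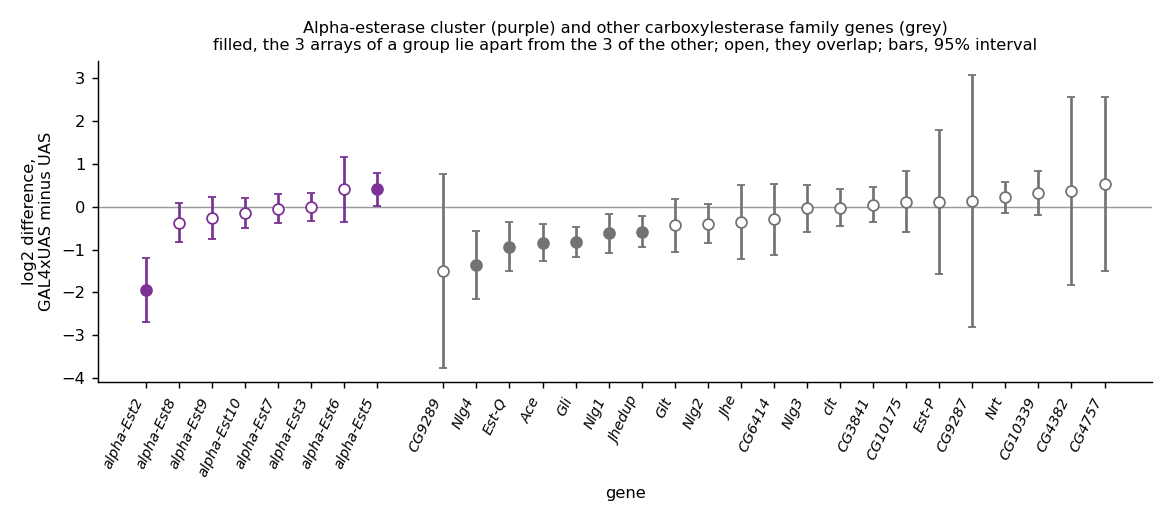
Log2 difference, GAL4xUAS minus UAS (vertical axis), with its 95% interval, for the 8 alpha-esterase genes (purple) and 21 other carboxylesterase family genes (grey), each set sorted by value along the horizontal axis. Filled points mark genes whose 3 GAL4xUAS arrays lie apart from the 3 UAS arrays, 2 in the cluster and 6 in the rest of the family.

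The genes whose log2 signals over the 6 arrays were most like those of alpha-Est2 were sought among all genes by Pearson correlation, as a description. With only 6 arrays in 2 groups such likeness says little, and 149 of 11982 genes had a coefficient over 0.95. The closest were cyst, which acts at apical cell junctions (0.996), syd, a scaffold protein of kinesin transport (0.995), the unconventional myosin gene Myo95E (0.994), CG11345 (0.991) and CG13003 (0.991). All 5 were lower in the cross without overlap, by log2 differences of -0.41, -0.67, -0.57, -0.87 and -0.80. That they were lower follows from their choice by likeness to alpha-Est2, which was itself lower without overlap. CG11345 was above the background range on 4 of the 6 arrays, so its value rests in part on signals near background.

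No measured marker of the tissues in a whole fly lay in the background range on every array. Not every listed marker had a value. Measured were 1 of 8 for eye and head, 1 of 2 for Malpighian tubule, 8 of 10 for midgut, 6 of 7 for fat body and 5 of 6 for muscle. The 13 male reproductive tract markers were all higher in the cross (median log2 difference 0.39, and 0.16 without GAL4xUAS replicate 2, when 10 were higher), 2 of them without overlap, against 6.72% of all genes. Of the 11 egg and yolk markers 9 were lower (median -0.17, ranging from -0.61 without GAL4xUAS replicate 3 to 0.018 without GAL4xUAS replicate 2), their sums being 443886 to 829350 in the GAL4xUAS arrays and 562425 to 782341 in the UAS arrays. The chorion gene Cp18 was the 1 lower without overlap, against 13.1% of all genes (log2 difference -2.39, 95% interval -4.58 to -0.20). Its signals were 2252, 3231 and 21902 in the GAL4xUAS arrays, so 1 array of the cross lay near the UAS arrays, at 27212 to 29711. Of the 8 measured midgut markers 7 were lower (median -0.13, ranging from -0.24 without GAL4xUAS replicate 2 to -0.0019 without GAL4xUAS replicate 1), with sums of 352795 to 492183 in the cross and 430684 to 509563 in the UAS stock, and 2 of them were lower without overlap, against 13.1% of all genes. Of the 6 fat body markers 5 were lower (median -0.51, ranging from -1.24 without UAS replicate 3 to 0.14 without UAS replicate 2). Fbp1, Fbp2 and Lsp2, at log2 differences of -0.75, -0.88 and -0.71, had residual SDs of 2.71, 1.76 and 1.61. Fbp1 was above the background range on 4 of the 6 arrays. The differences of apolpp, fon and Col4a1 were -0.058, 0.15 and -0.31. Irk3 was lower in the cross without overlap. The 5 muscle markers gave sums of 214380 to 450988 in the cross and 137917 to 389402 in the UAS stock, and the 1 measured eye marker, trp, was at 6472 to 8033 in the cross and 6190 to 10254 in the UAS stock. The part of tissue make-up in the alpha-esterase values was not tested.

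**Figure D5:**
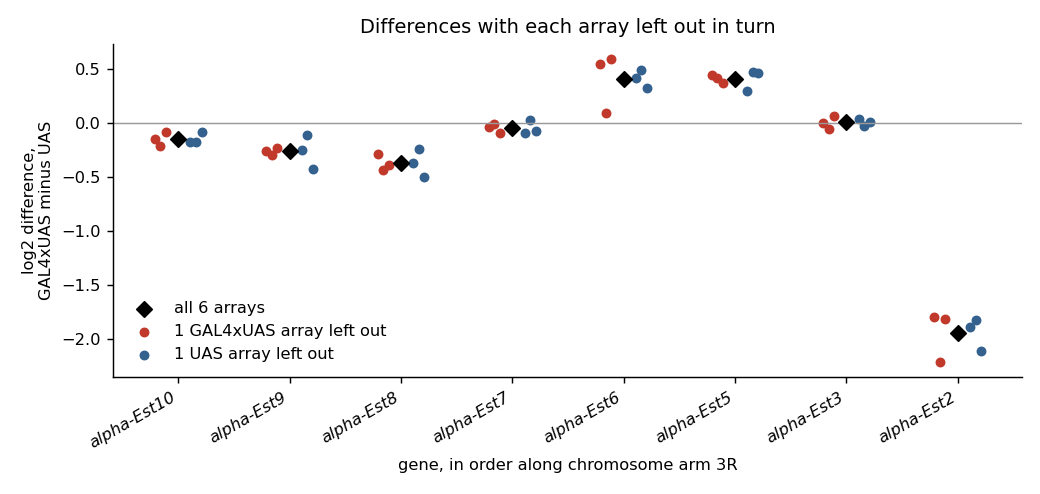
Log2 difference, GAL4xUAS minus UAS (vertical axis), of the 8 alpha-esterase genes (horizontal axis, in order along the chromosome) with all 6 arrays (black diamonds) and with 1 GAL4xUAS array (red) or 1 UAS array (blue) left out. alpha-Est2 stays between -2.21 and -1.80, alpha-Est6 lies between 0.085 and 0.59, and alpha-Est3 and alpha-Est7 fall on both sides of 0.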

How the data were processed

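Probe set intensities on a linear scale, as deposited by the authors, came from biotin-labelled RNA (2 ug) hybridised to Drosophila Genome 2.0 arrays of Affymetrix, per the labels. How probes were summarised, background-corrected and scaled is not stated in the sources read. With the extreme 2% at each end trimmed, all arrays had a mean signal of 2500.1, so they share a scale. Of 18952 probe sets, 183 controls were left out. Genes were named from probe sets with 1 symbol in the platform annotation, of which 13544 of 13647 matched the Release 6 gene table, used for names and gene order only. The brightest probe set stood for a gene. Differences of log2(signal + 1) were fitted with limma 3.58.1 in R 4.3.3, 2-sided, over all 18769 probe sets, and the fit was tested on simulated data.

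Named were all members, row neighbours with an unadjusted p under 0.01, the 3 other carboxylesterase genes with the smallest p, and the 5 genes most like the member with the largest difference. The members and lists were chosen with earlier results of these data known. Alternatives were a pseudocount of 16, a trended and robust prior, median centring, quantile scaling, dropping the 33.3% dimmest probe sets, a replicate block, each array left out, the mean of a gene's probe sets, and no probe sets shared between transcripts. Leaving out arrays in the trended fit was added after seeing the data.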

Additional observations from a re-analysis of the deposited data

How the results depend on the processing

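The median log2 difference of the 8 genes was -0.10 as reported and -0.14 to -0.05 in the 14 alternatives. Its shift from the reported value was in each of them smaller than the spread between arrays (SD 0.075), but the median itself was not always smaller than that spread. The count of probe sets past the test in limma was 0 in each alternative for which it was counted, other than 112 without the dimmest 33.3% of probe sets and 147 with the trended prior. It was not counted for the mean of a gene's probe sets. The trended count ranged from 7 without UAS replicate 1 to 225 without UAS replicate 3 when 1 array was left out. alpha-Est2 stayed lower in all 14, and passed in 2, without the dimmest probe sets (adjusted p = 0.0374 in limma) and with the trended prior (0.0181), the range over all being 0.0181 to 0.461. With the replicate block no probe set passed and alpha-Est2 had an adjusted p of 0.461. Same-numbered arrays did not deviate together (correlations -0.022, 0.00066 and -0.097), and no array correlated best with its own number. The sign of alpha-Est3 turned with quantile scaling (-0.00083), and with 1 array left out it ranged from -0.057 to 0.066. That of alpha-Est7 turned with median centring (0.00013), and with 1 array left out it ranged from -0.098 to 0.026. The cause of these turns was not tested. alpha-Est5, alpha-Est6, alpha-Est8, alpha-Est9 and alpha-Est10 kept their direction in every alternative. alpha-Est7 and alpha-Est9 had no value without probe sets shared between transcripts.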
